A study of Arabidopsis thaliana with 8 samples.

Results

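EDS1, PAD4, NPR1 and WRKY70 are regulators of salicylic acid immunity in Arabidopsis thaliana, and their transcripts were followed here in leaves treated with 2 neonicotinoid insecticides or with the hormone itself. Each gene was read from 1 probe set of the Affymetrix ATH1 array: 252373_at for EDS1 (AT3G48090), 252060_at for PAD4 (AT3G52430), 259764_at for NPR1 (AT1G64280) and 251705_at for WRKY70 (AT3G56400). They are 4 of the 22746 probe sets tested and were chosen by gene name, with earlier results of these data known. The probe table used here has no entry for the 4, so the pairing of probe set and gene rests on the ATH1 assignment by which they were chosen.

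EDS1 and PAD4 encode lipase-like proteins that form a heterodimer. Together they relay signals from intracellular immune receptors of the TIR class, and EDS1 pairs in the same way with SAG101. The EDS1-PAD4 complex promotes the accumulation of salicylic acid. NPR1 binds salicylic acid and acts as a transcriptional coactivator with TGA factors on pathogenesis-related genes. WRKY70 is a transcription factor downstream of NPR1 that is known to be induced by salicylic acid and to favour salicylic acid over jasmonate responses.

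The arrays held total RNA of fully expanded leaves of wild-type Columbia-0 plants, treated at 4 weeks of age and harvested 4 days later. The groups were 4 mM clothianidin, 4 mM imidacloprid, 4 mM salicylic acid and untreated, with 2 arrays each, 8 in all. Every group shared the genotype, the age and the harvest day. The labels describe 2 independent experiments that gave 1 sample each per group, and they do not name a mock treatment. Values are log2 summaries per probe set, so a difference of 1 is a doubling of signal.

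Array means lay between 5.24 and 5.28, and the 25th percentile, taken as near background, averaged 2.49. Replicate arrays correlated across probe sets at r = 0.963 with clothianidin, 0.969 with imidacloprid, 0.919 with salicylic acid and 0.955 in untreated leaves. Of 9 leaf markers, the 2 named by the probe table used here, RCA (Rubisco activase) and SBPASE (a Calvin cycle enzyme), lay at 13.22 to 14.37 and 9.79 to 12.41. Of 5 root markers the table names 2. EXPA7 lay at 1.96 to 2.01, under the background level on every array. PYK10 lay at 6.40 and 4.61 with clothianidin and 4.91 and 2.61 with imidacloprid (replicates 1 and 2). It lay at 9.09 and 4.49 with salicylic acid, and 5.92 and 4.59 in untreated leaves. Replicate 1 was thus higher in every group, most of all with salicylic acid, and the cause was not tested. The 3′ minus 5′ difference of control transcripts, which rises as RNA degrades, was higher on replicate 2 in all 4 groups for 4 of 6 control pairs and in 3 groups for the other 2. For the actin control it was 1.04 and 1.75 on clothianidin replicates 1 and 2, 0.87 and 1.11 with imidacloprid, 0.74 and 1.41 with salicylic acid, and 0.85 and 2.17 in untreated leaves. With 2 arrays in a group, precision is limited by their number.

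**Figure D1:**
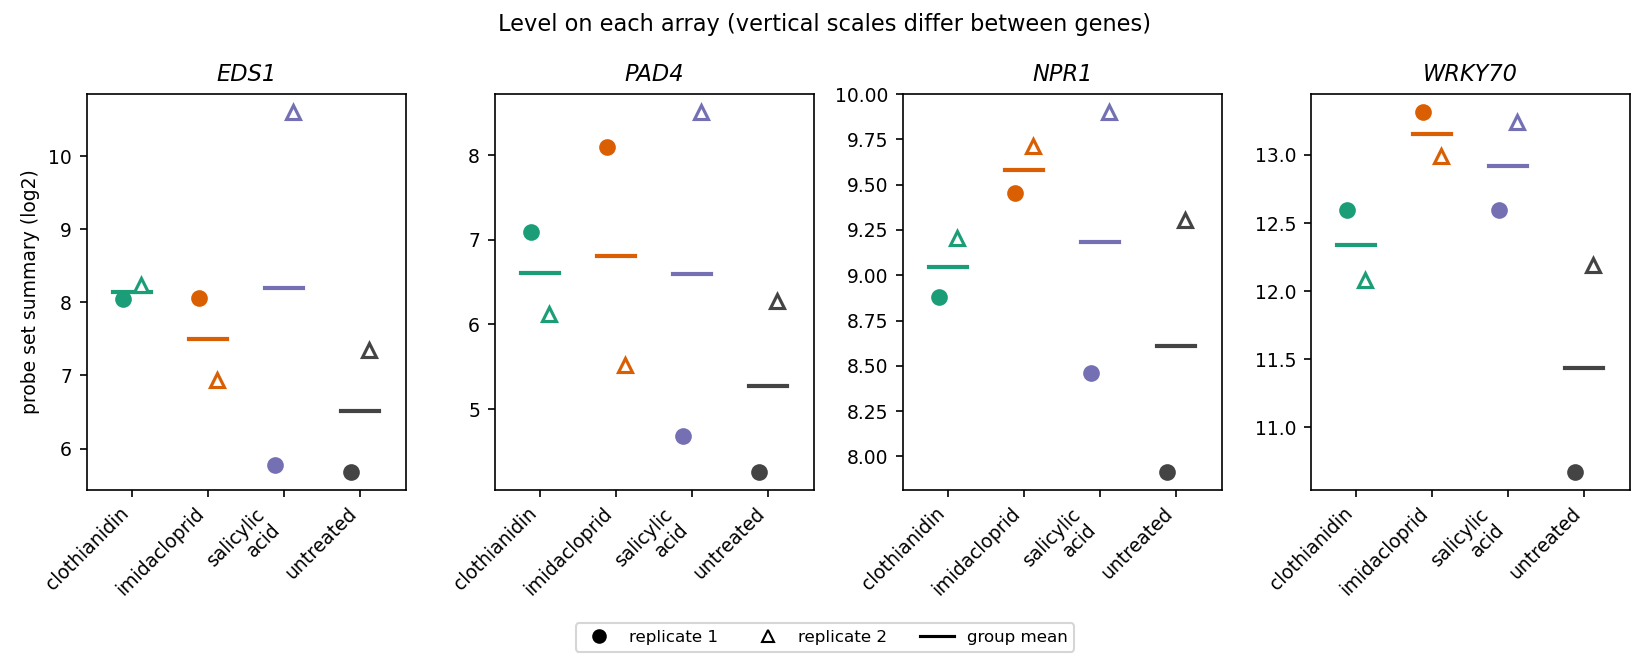
Log2 level of each gene on each of the 8 arrays (vertical axis, with a separate scale for each gene) by group. Circles are replicate 1, open triangles replicate 2, and bars group means. Untreated replicate 1 is the lowest array in all 4 panels, and the salicylic acid replicates of EDS1 lie 4.83 apart.

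EDS1 was measured at 8.04 and 8.24 with clothianidin, 8.06 and 6.93 with imidacloprid, 5.78 and 10.61 with salicylic acid, and 5.69 and 7.35 in untreated leaves (replicates 1 and 2 of each group). Both clothianidin arrays were above both untreated arrays. The imidacloprid and salicylic acid arrays overlapped the untreated ones, and the salicylic acid pair held the highest and the second lowest value of all 8. The group means were 8.14 ± 0.14, 7.50 ± 0.79, 8.20 ± 3.41 and 6.52 ± 1.18 in that group order (SD, n = 2). In descending order they ran salicylic acid, clothianidin, imidacloprid, untreated, and no neighbours in that order passed the test.

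PAD4 lay at 7.10 and 6.13 with clothianidin, 8.09 and 5.52 with imidacloprid, 4.68 and 8.52 with salicylic acid, and 4.26 and 6.28 in untreated leaves. Each treated group overlapped the untreated group. Untreated replicate 2 was higher than 1 array of every treated group. The treated means were close together, at 6.61 ± 0.69, 6.81 ± 1.82 and 6.60 ± 2.71, against 5.27 ± 1.43 in untreated leaves (SD, n = 2). Imidacloprid was the highest, followed by clothianidin, salicylic acid and untreated, again without a call between neighbours.

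NPR1 varied less than EDS1 and PAD4 on the log2 scale. It lay at 8.88 and 9.21 with clothianidin, 9.45 and 9.72 with imidacloprid, 8.46 and 9.90 with salicylic acid, and 7.92 and 9.30 in untreated leaves. Both imidacloprid arrays were above both untreated arrays and both clothianidin arrays. The clothianidin arrays fell between the untreated replicates. Means were 9.04 ± 0.23, 9.58 ± 0.19 and 9.18 ± 1.02 with clothianidin, imidacloprid and salicylic acid, and 8.61 ± 0.98 without treatment (SD, n = 2).

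Of the 4 genes, WRKY70 was the one whose levels followed the groups most closely. The groups held 69.5% of its variance, a share that 29.0% of all probe sets reached. Its values were 12.59 and 12.08 with clothianidin, 13.32 and 12.99 with imidacloprid, 12.59 and 13.24 with salicylic acid, and 10.67 and 12.19 in untreated leaves. The imidacloprid and the salicylic acid arrays were each above both untreated arrays. Clothianidin replicate 2 was below untreated replicate 2. The means were 12.34 ± 0.36, 13.15 ± 0.23 and 12.92 ± 0.46 in the treated groups, against 11.43 ± 1.07 in untreated leaves (SD, n = 2). They ran imidacloprid, salicylic acid, clothianidin, untreated in descending order, with no call between neighbours.

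The comparisons with untreated leaves ask whether the insecticides or the hormone changed the regulators. All 12 differences, 3 treatments for each of 4 genes, were positive, but these share the untreated arrays, and none passed limma's test at an adjusted p under 0.05. With imidacloprid 0 of the 4 genes were called, beside 0.312% of all probe sets (71 of 22746). With clothianidin and with salicylic acid 0 of 4 were called, beside 0% of all probe sets in either comparison. At an unadjusted p under 0.05, limma passed 1 of the 4 with imidacloprid, WRKY70, beside 19.3% of all probe sets (4385). It passed 0 of 4 with clothianidin, beside 2.63% (599), and 0 of 4 with salicylic acid, beside 3.38% (768). With imidacloprid 1 of 4 is thus near the share over all probe sets.

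WRKY70 with imidacloprid had the smallest p of these. It differed by 1.72 on the log2 scale, a 3.30-fold ratio (SE 0.57; 95% confidence interval 0.23 to 3.21; limma adjusted p = 0.210). Of all probe sets, 6.38% had a difference at least as high. With salicylic acid WRKY70 differed by 1.49, 2.80-fold (SE 0.57; -0.00 to 2.98; limma adjusted p = 0.975). With clothianidin it differed by 0.90, 1.87-fold (SE 0.57; -0.58 to 2.39; limma adjusted p = 0.996). The untreated pair decides these sizes: without untreated replicate 1 the 3 values were 0.96, 0.73 and 0.15, and without untreated replicate 2 they were 2.48, 2.24 and 1.66.

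The intervals of the lipase-like pair were wide. EDS1 differed by 1.62 with clothianidin (SE 1.69; 95% confidence interval -2.80 to 6.04), by 0.98 with imidacloprid (-3.44 to 5.40) and by 1.68 with salicylic acid (-2.74 to 6.10). Its limma adjusted p was 0.996, 0.796 and 0.975 in those comparisons. PAD4 differed by 1.34 with clothianidin (SE 1.66; -2.996 to 5.68), by 1.54 with imidacloprid (-2.80 to 5.88) and by 1.33 with salicylic acid (-3.01 to 5.67), at limma adjusted p of 0.996, 0.671 and 0.975. These intervals hold a change of over 5 upward as well as no change. Without untreated replicate 1 EDS1 differed by 0.79 with clothianidin and 0.14 with imidacloprid, and without untreated replicate 2 by 2.45 and 1.81. PAD4 with clothianidin was 0.34 and 2.35 in those fits, and with imidacloprid it was 0.25 without imidacloprid replicate 1 and 2.83 without imidacloprid replicate 2. The salicylic acid values turned with 1 array: without salicylic acid replicate 2 EDS1 and PAD4 differed by -0.74 and -0.59, and without replicate 1 by 4.09 and 3.25.

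NPR1 differed by 0.44 with clothianidin (SE 0.66; -1.30 to 2.17; limma adjusted p = 0.996), 0.97 with imidacloprid (-0.76 to 2.71; adjusted p = 0.485) and 0.57 with salicylic acid (-1.16 to 2.31; adjusted p = 0.975). Without untreated replicate 1 these were -0.26, 0.28 and -0.12, and without salicylic acid replicate 2 the last was -0.15. Over all probe sets, 11.8%, 11.7% and 10.2% had a difference at least as high as NPR1 in the 3 comparisons. The corresponding shares were 2.37%, 11.6% and 2.53% for EDS1, and 3.24%, 7.15% and 3.65% for PAD4.

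**Figure D2:**
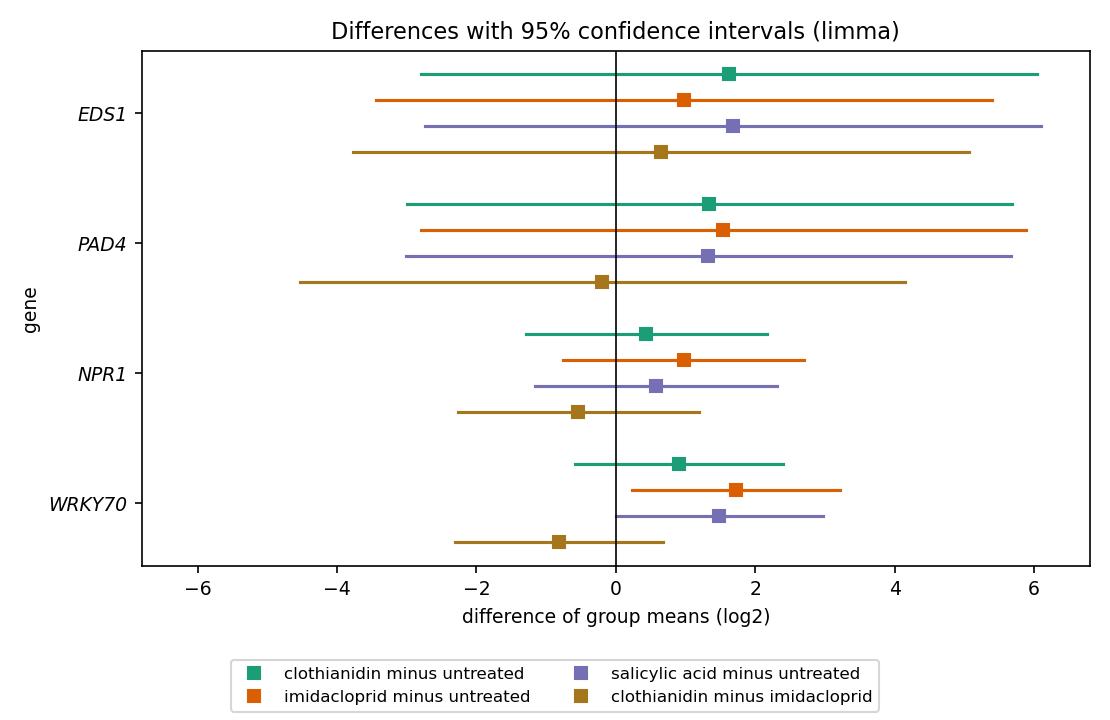
Difference of group means on the log2 scale (horizontal axis) for each gene, with the 95% confidence interval from limma as a line. Of the 16 intervals, that of WRKY70 for imidacloprid minus untreated, 0.23 to 3.21, does not reach 0, but its adjusted p is 0.210.

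Both arrays of a treatment were above both untreated arrays for 1 of 4 genes with clothianidin (EDS1), beside 10.0% of all probe sets. With imidacloprid this held for 2 of 4 (NPR1 and WRKY70), beside 40.2% of probe sets. With salicylic acid it held for 1 of 4 (WRKY70), beside 8.28%. With so few arrays in a group an exact permutation test on 1 gene can give no two-sided p under 0.333.

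The 3 treatments together were also set against untreated leaves. The mean of the treated groups was 1.43 above untreated for EDS1, 1.40 for PAD4, 0.66 for NPR1 and 1.37 for WRKY70. WRKY70 had the interval 0.15 to 2.59 (limma adjusted p = 0.486), and the other 3 had adjusted p between 0.764 and 0.840. Without untreated replicate 1 the 4 values were 0.59, 0.40, -0.03 and 0.61, and without untreated replicate 2 they were 2.26, 2.41, 1.35 and 2.13. Without salicylic acid replicate 2 EDS1 and PAD4 were at 0.62 and 0.76, and without replicate 1 EDS1 was at 2.23. Thus 0 of 4 were called, beside 0.0044% of all probe sets (1 of 22746), while 2186 probe sets (9.61%) had an unadjusted p under 0.05.

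Clothianidin and imidacloprid, 1 pair of related compounds, were given at equal dose and harvested on the same day. Clothianidin has an open-chain core with a chlorothiazole ring, and imidacloprid a closed imidazolidine ring with a chloropyridine ring. Clothianidin minus imidacloprid, WRKY70 differed by -0.82 (95% confidence interval -2.31 to 0.67; limma adjusted p = 0.547) and NPR1 by -0.54 (-2.27 to 1.19; adjusted p = 0.707). For both genes the 2 clothianidin arrays were below the 2 imidacloprid arrays, as they were for 43.9% of all probe sets. EDS1 differed by 0.64 (-3.78 to 5.07; adjusted p = 0.855) and PAD4 by -0.20 (-4.54 to 4.14; adjusted p = 0.957). None of the 4 was called, beside 0.0967% of probe sets (22 of 22746), with 3128 at an unadjusted p under 0.05. The intervals do not show that the compounds act alike on these genes.

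Set against salicylic acid, WRKY70 differed by -0.58 with clothianidin (-2.07 to 0.91; limma adjusted p = 1.00) and 0.24 with imidacloprid (-1.25 to 1.73; adjusted p = 0.844). For the other 3 genes the differences ran from -0.14 to 0.01 with clothianidin and from -0.70 to 0.40 with imidacloprid. These small values do not show equality: for clothianidin the 95% confidence interval was -4.48 to 4.37 for EDS1 and -4.33 to 4.35 for PAD4. Without salicylic acid replicate 1 they were -2.47 and -1.90, and without replicate 2 they were 2.36 and 1.93. No gene of the 4 was called in either, beside 0% and 0.0835% of probe sets, with 277 and 2943 at an unadjusted p under 0.05.

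The gap between replicates was wide for some genes and groups and ordinary for others. The salicylic acid replicates of EDS1 were 4.83 apart, and 0.708% of all probe sets had a gap at least as wide in that group. The PAD4 gap was 3.84 there, reached by 1.60% of probe sets, 2.57 with imidacloprid (1.24%) and 2.02 in untreated leaves (4.03%). In untreated leaves EDS1, NPR1 and WRKY70 had gaps of 1.67, 1.39 and 1.52, reached by 6.10%, 8.69% and 7.29% of probe sets. The median gap over all probe sets was 0.30 with salicylic acid and 0.23 without treatment. The remaining gaps were closer to those of other probe sets. With clothianidin they ran from 0.19 for EDS1, reached by 52.0% of probe sets, to 0.97 for PAD4, reached by 12.8%, with NPR1 and WRKY70 at 41.2% and 29.3%. With imidacloprid NPR1 and WRKY70 had gaps of 0.26 and 0.33 (42.6% and 37.5%) and EDS1 1.12 (8.23%). With salicylic acid those of NPR1 and WRKY70 were 1.44 and 0.65 (14.7% and 33.7%).

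Over the 8 arrays, the groups accounted for 21.1% of the variance of EDS1, 18.6% of PAD4, 31.7% of NPR1 and 69.5% of WRKY70, beside a median of 55.2% over all probe sets. Shares at least as high were held by 89.9%, 91.8%, 80.7% and 29.0% of all probe sets, in that gene order. An overall test of any difference among the 4 groups gave F of 0.42, 0.36 and 0.73 for EDS1, PAD4 and NPR1 (limma adjusted p = 0.914, 0.926 and 0.864). For WRKY70 it gave F of 3.61 (limma adjusted p = 0.568). By this test 0 of 4 were called, beside 0.0396% of probe sets (9 of 22746), with 2488 at an unadjusted p under 0.05.

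Within replicate number 1 each treated array was above the untreated array for every gene, since untreated replicate 1 was the lowest array for all 4. For PAD4 clothianidin gave 2.84, imidacloprid 3.83 and salicylic acid 0.42, and for EDS1 they gave 2.36, 2.37 and 0.10. NPR1 gave 0.97, 1.54 and 0.55, and WRKY70 1.92, 2.65 and 1.92. Within number 2 the insecticide differences were smaller for every gene. EDS1 gave 0.89 with clothianidin and -0.42 with imidacloprid, PAD4 -0.15 and -0.75, NPR1 -0.09 and 0.41, and WRKY70 -0.11 and 0.80. With salicylic acid the number 2 values were 3.26 for EDS1, 2.24 for PAD4, 0.60 for NPR1 and 1.05 for WRKY70. Because the number 1 differences are positive through that low untreated array, only the number 2 signs could vary. Within number 2 the salicylic acid differences were positive for all 4 genes. With imidacloprid this held for NPR1 and WRKY70, and with clothianidin for EDS1. Within number 1 the salicylic acid values were as small as 0.10 for EDS1 and 0.42 for PAD4. The share of all probe sets positive within number 2 was not computed, and the labels do not say that a number pairs the arrays. The actin 3′ minus 5′ difference moved with replicate number. Over the 8 arrays its r was 0.380 with EDS1, 0.217 with PAD4, 0.431 with NPR1 and -0.03 with WRKY70, and its part in these values was not tested.

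**Figure D3:**
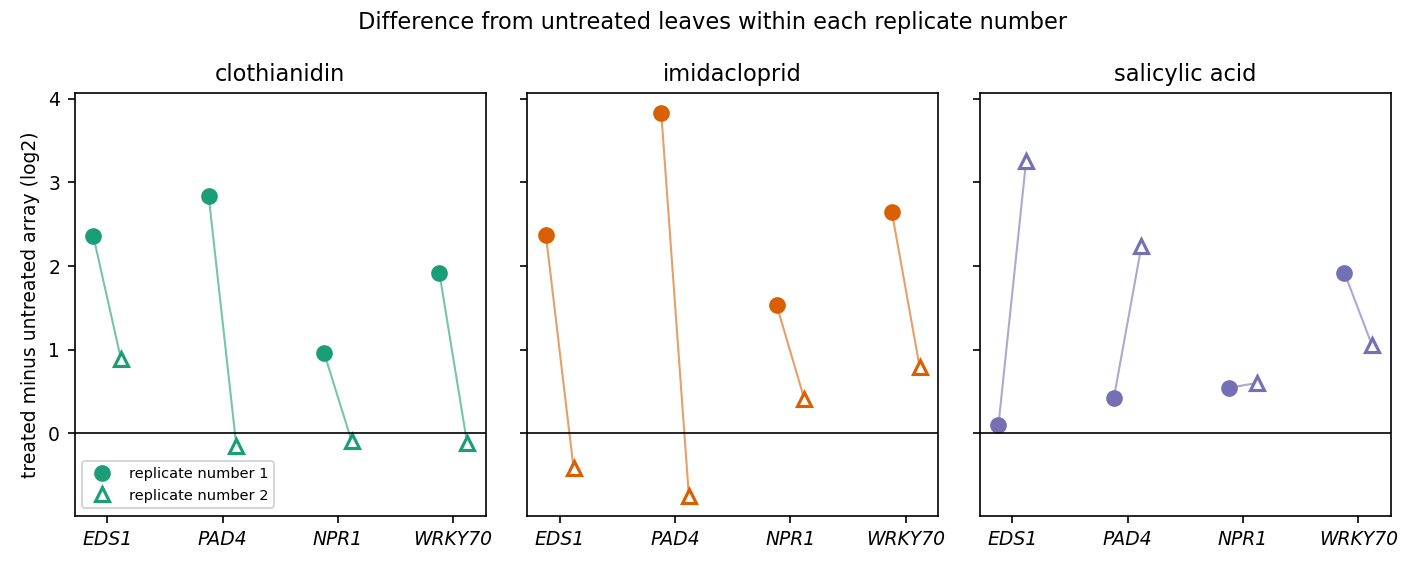
Treated array minus untreated array of the same replicate number on the log2 scale (vertical axis) for each gene and treatment. Circles are number 1 and open triangles number 2. For PAD4 with imidacloprid the values are 3.83 and -0.75.

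The 4 genes shared some of their lowest and highest arrays. Untreated replicate 1 was the lowest array for 4 of 4, as it was for 12.5% of all probe sets. Salicylic acid replicate 2 was the highest for EDS1, PAD4 and NPR1, and both held for 3 of 4, beside 4.36% of all probe sets. The genes did not move alike in every group: between the imidacloprid replicates, replicate 2 minus replicate 1 was -2.57 for PAD4 and 0.26 for NPR1. EDS1 and PAD4 were the closest pair over the 8 arrays (Pearson r = 0.902, Spearman rho = 0.857), and r was 0.812 without the 2 arrays farthest from the EDS1 median. Their deviations from the group means, which leave the treatments out, correlated at r = 0.915. With 2 arrays in a group these deviations hold only the replicate difference of each of the 4 groups. The widest, with salicylic acid, was 4.83 for EDS1 and 3.84 for PAD4 and weighs most in that r. NPR1 and WRKY70 correlated at r = 0.802 (rho = 0.714) and EDS1 and NPR1 at 0.758 (rho = 0.643). PAD4 with NPR1 gave 0.737 (rho = 0.690), PAD4 with WRKY70 0.713 (rho = 0.619) and EDS1 with WRKY70 0.581 (rho = 0.405). Of the single-gene probe sets above background, 0.911% had an r with EDS1 at least as high as that of PAD4. The like share, taken for the first gene named, was 7.17% for NPR1 with WRKY70 and 7.19% for EDS1 with NPR1. It was 5.59% for PAD4 with NPR1, 6.71% for PAD4 with WRKY70 and 15.9% for EDS1 with WRKY70. Without the 2 arrays farthest from the first gene's median, EDS1 with WRKY70 gave -0.05 and PAD4 with NPR1 0.37. PAD4 with WRKY70 then gave 0.39 and EDS1 with NPR1 0.44. Those arrays were the ends of the first gene's range, and leaving out the ends can itself lower r. Without untreated replicate 1 alone these 4 pairs gave 0.361, 0.590, 0.561 and 0.672. Without salicylic acid replicate 2 alone they gave 0.501, 0.638, 0.659 and 0.688. The points are 8 arrays in 4 groups of 2, so these values describe the arrays and mix treatment with replicate differences.

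Among 9880 single-gene probe sets above background, the 3 most like each regulator over the 8 arrays were as follows. Nearest to EDS1 were GLR1.4, a glutamate receptor-like gene, at r = 0.985, AT2G40270 at 0.976 and AT1G63830 at 0.974. Nearest to PAD4 were ECS1 at 0.985, AT4G00955 at 0.965 and AT1G67060 at 0.962. NPR1 was followed most closely by OBE1, which encodes a PHD-finger protein, at 0.997, then by AT1G68710 at 0.991 and AT5G18490 at 0.990. WRKY70 was nearest to GID1B, which encodes a gibberellin receptor, at 0.963, then AT2G27310 at 0.961 and AT5G64870 at 0.959. They were picked as the highest of those candidates, so their r is a description. GID1B lay at 6.07 and 5.54 with clothianidin, 7.16 and 7.43 with imidacloprid, 5.73 and 7.48 with salicylic acid, and 2.94 and 4.73 in untreated leaves.

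The locus beside EDS1 in the TAIR10.1 annotation, AT3G48080, has a probe set of its own and was looked up after the values of EDS1 had been seen. Columbia plants carry a tandem copy of EDS1, and cross-hybridisation between copies was not tested. AT3G48080 lay at 6.96 and 6.77 with clothianidin, 7.89 and 7.85 with imidacloprid, 4.78 and 9.27 with salicylic acid, and 2.68 and 7.28 in untreated leaves. It shared with EDS1 the low untreated replicate 1 and the wide salicylic acid pair. However, it was higher on both imidacloprid arrays than on both clothianidin arrays, as were 43.9% of all probe sets. Its differences from untreated leaves were 1.89 for clothianidin, 2.89 for imidacloprid and 2.05 for salicylic acid (limma adjusted p = 0.996, 0.506 and 0.975). Over the arrays it correlated at r = 0.826 with EDS1 and at 0.972 with NPR1.

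Of 75 listed partners, relatives and downstream genes of the pathway, 9 were named by the probe table as the 1 gene of a probe set, and 0 of the 9 were called against untreated leaves in any of the 3 treatments, beside the 0.312% and 0% given above. The table is partial, since it lacks the 4 regulators too, so the other listed genes were not analysed here. SAG101, the alternative partner of EDS1, was the 1 gene matched of 8 in the EDS1-PAD4 list. It lay at 5.47 and 4.99 with clothianidin, 5.75 and 4.24 with imidacloprid, 4.74 and 6.86 with salicylic acid, and 3.31 and 5.64 in untreated leaves. It differed from untreated leaves by 0.76, 0.52 and 1.33 (limma adjusted p = 0.996, 0.836 and 0.975), and its r was 0.901 with PAD4 and 0.865 with EDS1. Like both of them it was lowest on untreated replicate 1 and highest on salicylic acid replicate 2.

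Of 23 genes of the NPR1 family and its partners, 2 were matched. GRX480, a glutaredoxin gene whose product interacts with TGA factors, lay at 8.66 and 8.10 with clothianidin, 10.52 and 10.63 with imidacloprid, 7.15 and 10.097 with salicylic acid, and 3.39 and 8.47 in untreated leaves. Both imidacloprid arrays were above every untreated and clothianidin array. The first held for 40.2% of all probe sets and the second for 43.9%, and the share with both was not computed. Untreated replicate 1 was the lowest array of all for GRX480. Its difference from untreated leaves was 4.64 with imidacloprid (95% confidence interval -0.35 to 9.63; limma adjusted p = 0.287), and its r was 0.939 with WRKY70 and 0.926 with NPR1. AT4G26120, the other matched gene, lay at 2.095 to 3.52 on 7 arrays and at 4.86 on imidacloprid replicate 1. The median difference of these 2 genes was 1.31 for clothianidin, 3.17 for imidacloprid and 1.68 for salicylic acid. Over all probe sets the medians were -0.02, 0.02 and -0.02. With 2 of 23 genes matched and neither called, the values do not describe the list as a whole.

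Of 28 WRKY factors, 2 were matched beside WRKY70. WRKY53, a group III factor like WRKY70, lay at 9.28 and 10.0996 with clothianidin, 9.88 and 9.76 with imidacloprid, 6.44 and 12.67 with salicylic acid, and 3.75 and 6.89 in untreated leaves. It was above both untreated arrays on every insecticide array and below 1 of them on salicylic acid replicate 1. Such a separation held for 10.0% of all probe sets with clothianidin and 40.2% with imidacloprid. WRKY6 lay at 6.49 and 5.37, 8.08 and 7.97, 4.74 and 6.66 in the same groups, against 2.58 and 3.66 in untreated leaves. Its 6 treated arrays were all above both untreated arrays, with a difference of 4.90 for imidacloprid (2.81 to 6.996, limma adjusted p = 0.0865). Taken singly, clothianidin, imidacloprid and salicylic acid arrays were above both untreated arrays for 10.0%, 40.2% and 8.28% of all probe sets. The share for the treatments together was not computed. The median differences of these 2 genes were 3.59, 4.70 and 3.41 with clothianidin, imidacloprid and salicylic acid.

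Of 16 genes of salicylic acid synthesis, modification and response, 4 were matched. UGT76B1, whose enzyme glycosylates salicylic acid and other immune regulators, lay at 3.72 and 2.65 with clothianidin, 9.22 and 10.93 with imidacloprid, 3.59 and 5.91 with salicylic acid, and 2.13 and 2.15, under the background level, in untreated leaves. Its imidacloprid arrays were above the other 6, a pattern whose share over all probe sets was not computed. Imidacloprid arrays were above both untreated arrays for 40.2% of all probe sets and above both clothianidin arrays for 43.9%. For UGT76B1 limma gave an adjusted p of 0.0707 for imidacloprid against untreated leaves. Its r with EDS1 was 0.200. The others were BSMT1, a salicylic acid methyltransferase gene, AT5G52810 and UGT74F1, a salicylic acid glucosyltransferase gene. AT5G52810 lay at 7.37 and 7.04 with clothianidin, 8.51 and 8.16 with imidacloprid, 5.70 and 8.65 with salicylic acid, and 4.97 and 6.40 in untreated leaves, and its r was 0.903 with NPR1 and 0.841 with PAD4. UGT74F1 stayed between 2.501 and 2.75 on all 8 arrays, near background. BSMT1 was at 5.98 and 6.52 with imidacloprid and 6.25 on clothianidin replicate 1, and between 2.29 and 2.33 on the other 5 arrays. For the 4 matched genes the median difference with clothianidin was 1.28, that with imidacloprid 3.29 and that with salicylic acid 0.74. UGT76B1, BSMT1 and UGT74F1 were near or under background in untreated leaves, so these medians are not exact differences in transcript level, nor is that of the NPR1 list, where AT4G26120 was under background.

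The photosynthesis marker SBPASE ran opposite to the regulators over the arrays, at r = -0.897 with NPR1, -0.721 with WRKY70, -0.648 with EDS1 and -0.619 with PAD4. Of the single-gene probe sets above background, 96.8%, 87.4%, 91.9% and 88.5% had an r at least that high with those genes. RCA, the other leaf marker measured, gave -0.852, -0.570, -0.741 and -0.625 with the same genes. SBPASE was at 11.98 and 11.48 with clothianidin, 10.53 and 9.85 with imidacloprid, 12.28 and 9.79 with salicylic acid, and 12.41 and 11.65 in untreated leaves. Its part in the values of the regulators was not tested. In whole leaves, fewer cells of a type and less RNA per cell cannot be told apart.

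**Figure D4:**
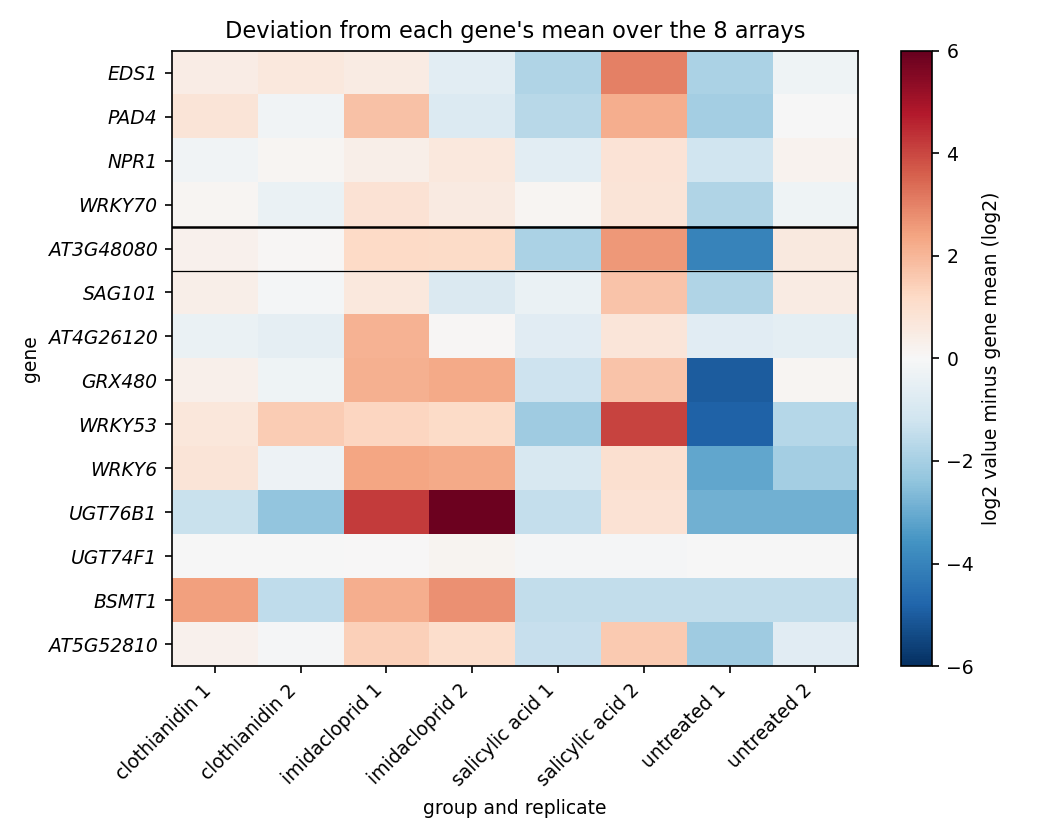
Deviation of each gene from its own mean over the 8 arrays, on the log2 scale (colour, red above and blue below), for the 4 regulators (above the thick line), the neighbouring locus AT3G48080 and the 9 matched pathway genes. Columns are group and replicate. The untreated replicate 1 column is below the mean for all 4 regulators, and the salicylic acid replicate 2 column is above it.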

How the data were processed

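The deposited table gives 1 log2 summary for each probe set and array. The submitters' processing notes name RMA and affy, with no version or order. The background step and the genome build are not given in the sources used here, and the low values are lower than plain RMA usually gives, so the background level used here was read from the values alone. All 8 columns matched a sample label, so no column was left out.

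Of 22810 probe sets, 64 controls were left out. The remaining 22746 entered a single linear model over all 8 arrays, with no block, using limma 3.58.1 under R 4.3.3 and its empirical Bayes step (4 residual degrees of freedom, prior 0.766). Tests were two-sided, and p-values were Benjamini-Hochberg adjusted over all probe sets within a comparison. The fit was run on simulated data drawn as independent normal values. These held no effect shared by replicates, so the run says nothing about such an effect in the real arrays. Replicates came from 2 independent experiments per the labels, which do not say that a replicate number marks an experiment. Replicate differences correlated between groups at -0.00 to 0.523, below 0.1 for 2 of 6 pairs of groups. The pairs without imidacloprid lay at 0.302, 0.361 and 0.523, and clothianidin with imidacloprid at 0.230. The main fit did not take the numbers to pair the arrays, and a replicate block was fitted as an alternative.

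Other genes were named through the probe table and RefSeq gene identifiers (13436 single-gene probe sets). The named genes were the 4 regulators, the matched list genes, and the 3 nearest genes of each regulator by r. The members and lists were chosen with earlier results of these data known. No coordinates or sequences are printed. Figures were drawn with matplotlib 3.10.9.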

Additional observations from a re-analysis of the deposited data

How the results depend on the processing

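None of the 32 tests of EDS1, PAD4, NPR1 and WRKY70 was called in the main fit or in any of its 504 values under the alternatives, whose lowest limma adjusted p was 0.115 (WRKY70, imidacloprid minus untreated, without untreated replicate 2; range 0.115 to 0.472). Some differences changed sign, and since none was called in any fit, the changes could fall only on uncalled ones. The cause was not tested beyond the array left out. PAD4 in clothianidin minus salicylic acid was -0.00341 with arrays centred on medians and -0.0516 with repeated quantile normalization; PAD4 in clothianidin minus imidacloprid was 0.289 without both arrays of the highest actin difference, an alternative chosen after the data were seen. Leaving out each array in turn, where a lone array is assumed to vary like the other groups, gave these ranges. Against untreated leaves, clothianidin gave -0.26 to 1.13 for NPR1, salicylic acid -0.74 to 4.09 for EDS1, -0.59 to 3.25 for PAD4 and -0.15 to 1.30 for NPR1, and the mean of the treatments -0.0321 to 1.35 for NPR1. Clothianidin minus imidacloprid gave -1.48 to 1.09 for PAD4. Clothianidin minus salicylic acid gave -2.47 to 2.36 for EDS1, -1.90 to 1.93 for PAD4 and -0.86 to 0.58 for NPR1. Imidacloprid minus salicylic acid gave -3.11 to 1.71 for EDS1, -1.71 to 2.13 for PAD4, -0.32 to 1.12 for NPR1 and -0.0870 to 0.56 for WRKY70. With a replicate block the differences were the same, for example 1.72 for WRKY70 with imidacloprid, and no regulator was called; over all probe sets the block called 43 with imidacloprid (71 without it), 2 for clothianidin minus imidacloprid (22), 3 for imidacloprid minus salicylic acid (19), 0 for the mean of the treatments (1) and 1 in the overall test (9). Over the alternatives that count ran from 0 to 465, those of clothianidin and salicylic acid against untreated leaves from 0 to 72 and 0 to 82, clothianidin minus imidacloprid from 0 to 279, imidacloprid minus salicylic acid from 0 to 276, clothianidin minus salicylic acid from 0 to 19, the mean of the treatments from 0 to 143 and the overall test from 0 to 145. Array weights were equal within each pair, since 2 arrays cannot be weighted apart. The r of EDS1 and PAD4 ran from 0.869 to 0.965 as arrays were left out.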
